A study of Homo sapiens with 8 samples.

Results

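Heat shock proteins and the cytosolic and mitochondrial chaperones that act with them were examined in 2 thyroid cell lines in which the level or activity of miR-375 was altered. The set held 54 genes out of 36337 gene names on the array, measured by 86 of 50599 probes, and consisted of every non-control probe whose gene name in the array files was that of a member. It comprised 3 genes of the HSP90 family, 13 of the HSP70 family with HSP110, 5 small HSPs, 11 J-domain proteins (HSP40), 9 chaperonins, 11 co-chaperones including the ubiquitin ligase STUB1, and 2 heat shock factors. The members were set by gene name and not by a cutoff on measured values, but earlier results of these data were known when they were chosen.

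The transcriptome was measured on 8 one-colour Agilent arrays, 2 for each of 4 groups. Nthy-ori 3-1 cells (ORI in the labels), an immortalized line of non-tumor thyroid follicular cells, were transfected with premiR-375, a synthetic mimic of the miRNA, or belonged to the control group CTL. TT cells, a line of medullary thyroid carcinoma, were transfected with AntagomiR-375, an antisense inhibitor, or belonged to their own CTL group. All cells were transfected for 48 h with a lipid reagent. The labels do not name the reagent of the CTL groups. The study's methods describe a control precursor and a control antagomiR. Each treatment was studied in 1 cell line, and the level that miR-375 itself reached is not among these values.

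Chaperones bind unfolded proteins and keep them from aggregating. HSP70 proteins take up clients delivered by J-domain proteins and release them with the help of nucleotide exchange factors such as HSP110 and the BAG proteins. HSP90 proteins complete the maturation of kinases and steroid receptors together with co-chaperones, small HSPs hold clients without using ATP, and the ring-shaped chaperonins fold actin, tubulin and mitochondrial enzymes. The transcription factor HSF1 binds repeated nGAAn units, the heat shock element, in the promoters of many of these genes and raises their transcription under proteotoxic stress.

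The mature miRNA that was raised or inhibited is shown because it is the manipulated agent, with its seed (bases 2 to 8) in capitals. It lies at chr2:219001648-219001669 on the minus strand of GRCh38.p14 (RefSeq).
hsa-miR-375-3p: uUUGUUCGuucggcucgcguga

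The promoters of the members were read from RefSeq (GRCh38.p14, 250 bases before to 50 bases after the start of each gene), since several of the members described here are known heat shock genes. An entry was found for 48 of the 54 members. A run of 3 heat shock units, spelled TTCNNGAANNTTC or GAANNTTCNNGAA on the gene's strand with overlapping matches allowed, was present in 8 of these 48 promoters (16.7%) and in 166 of 27305 promoters of all genes (0.608%). Runs of 2 units, spelled GAANNTTC or TTCNNGAA, were present in 24 of 48 (50%) and in 16.2% of all. The 3-unit runs are contained in the 2-unit count. A 30-base window is shown for each of 5 members with a 3-unit run, in capitals, written along the strand of the gene: HSP90AA1 at chr14:102087111-102087140 (minus), CHORDC1 at chr11:90223088-90223117 (minus), HSPA8 at chr11:123062170-123062199 (minus), HSP90AB1 at chr6:44247770-44247799 (plus) and HSPA6 at chr1:161524458-161524487 (plus).
HSP90AA1: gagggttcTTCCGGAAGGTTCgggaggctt
CHORDC1: cgcgaccgGAAAATTCGCGAAggttcctga
HSPA8: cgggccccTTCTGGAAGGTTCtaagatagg
HSP90AB1: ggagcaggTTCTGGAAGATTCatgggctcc
HSPA6: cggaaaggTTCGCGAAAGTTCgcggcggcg
The other members with such a run were HSPD1, DNAJA1 and DNAJB6. A match describes letters in the window and not the binding of a factor.

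Values are log2 signals after quantile normalization of the 8 arrays, and a gene was represented by its probe with the highest mean over the arrays. Within a line, arrays of equal replicate number shared a slide, and differences were taken between the treated and the control array of a slide, which is called a pair here. Between 32071 and 37340 spots per array were well above background and 0 were saturated. The RNA integrity number was 9 except in the TT control group, where it was 8 for each array, so that RNA quality moved with the treatment in TT cells, and its part in the results of that line was not tested. Of 10 markers of C cells, all were well above background on the 4 TT arrays, while among 9 follicular markers the ORI control arrays showed PAX8 (10.73 and 10.62) and FOXE1 (8.80 and 8.72) but had NKX2-1, TSHR, DIO1 and DUOX2 not well above background. NKX2-1 and TG were well above background in TT cells.

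Slides of Nthy-ori 3-1 cells differed for many members. Between the ORI controls, the second replicate was above the first for 39 of the 51 members with a mean of at least 6, with a median difference of 0.35 against -0.04 over all genes. Among the pre-miR-375 arrays the median of the same difference was 0.46, and in TT cells it was 0.07 and 0.05. HSP90 genes had a median of 1.09 between the ORI controls, and HSPA8, the constitutive cytosolic HSP70, was at 13.35 and 14.93. The pairs remove this difference, which is why they are given for each gene.

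In Nthy-ori 3-1 cells, most chaperone genes were lower with pre-miR-375 than on the control array of the same slide. Of the 51 members with a mean of at least 6 over the 4 arrays, 34 were lower in both pairs (66.7%, against 33.4% of 15890 genes at the same minimum) and 9 were higher in both (17.6%, against 41.2%). The median log2 difference of the members was -0.24, whereas that of all genes was 0.05. A difference of at least 0.6 in both pairs was seen downward for 8 members (15.7%, against 6.31% of all genes) and upward for 1 member (against 4.7%). A difference of at least 1 in both pairs was seen downward for 5 members (9.8%, against 2.5% of all genes). The 8 past 0.6 were HSP90AA1, HSPA1A, HSPA1B, HSPA9, HSPH1, DNAJB1, DNAJC2 and CHORDC1, and the 1 in the other direction was HSPB8.

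No member passed the adjusted p of 0.05 in this line with limma and Benjamini-Hochberg adjustment over all probes, and neither did any of 36337 genes (0%). At an unadjusted p under 0.05, 15 members were lower (29.4%, against 11.8% of all genes) and 1, HSPA13, was higher (against 11%). With 2 arrays per group an exact two-sided permutation test that ignores the pairs cannot give a p under 0.333. Permutation within pairs allows still fewer arrangements. After normexp background correction 7 members passed the adjusted p, all of them lower (3.46% of all genes passed), and 5 did with the median spot signal (1.16%), with the log2 values deposited by the authors (1.26%) and when dim probes were left out (3.92%). HSP90AA1, HSPA9, HSPH1, DNAJC2 and CHORDC1 were called in each of these 4 settings, and HSPA1A and DNAJB1 with normexp only.

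**Figure D1:**
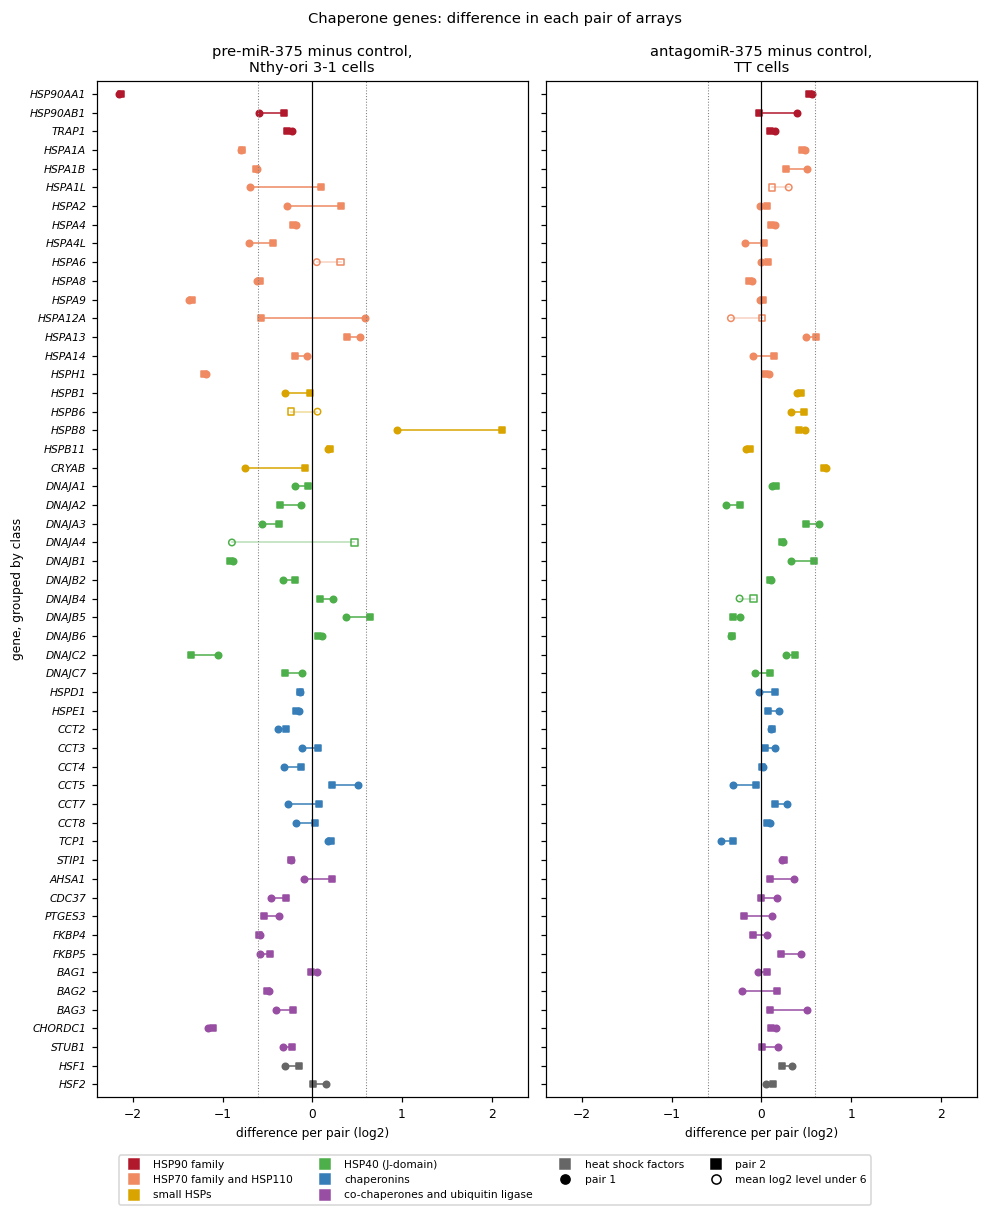
Log2 difference of each chaperone gene between treated and control array for pair 1 (circles) and pair 2 (squares), for Nthy-ori 3-1 cells given pre-miR-375 on the left and TT cells given antagomiR-375 on the right. Colors mark classes, open symbols mark genes with a mean log2 level under 6 in that line, and dotted lines mark 0.6 in each direction. In Nthy-ori 3-1 cells 34 of 51 genes lie left of 0 in both pairs, and in TT cells 31 of 51 lie right of it.

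The HSP90 family held the largest difference. HSP90AA1 encodes the stress-inducible cytosolic HSP90 alpha, and its probe lies at chr14:102547395-102547454 (hg19). Its log2 signal was 16.08 and 17.07 on the ORI control arrays, 13.92 and 14.94 with pre-miR-375, 15.72 and 15.86 in TT control, and 16.28 and 16.39 with antagomiR-375. In neither line did treated and control arrays overlap. The log2 difference was -2.14 ± 0.08 (SE, n = 2 per group, limma adjusted p = 0.318), a signal 4.41-fold lower, and in TT cells it was 0.55 ± 0.08 (limma adjusted p = 0.512). All 3 of its probes had the same signs, with -2.37 to -2.14 in Nthy-ori 3-1 and 0.55 to 0.66 in TT cells. The study selected HSP90AA1 on these same arrays, so its direction is not independent evidence. HSP90AB1, the constitutive isoform, differed by -0.60 and -0.31 in the ORI pairs. TRAP1, the mitochondrial HSP90, differed by -0.23 and -0.28. The control arrays of the 2 ORI slides were at least 0.99 apart for every HSP90 gene.

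Within the HSP70 family, 8 of 12 expressed genes were lower in both ORI pairs (against 33.4% of all genes). The median difference was -0.44. HSPA9 encodes mortalin, the HSP70 of the mitochondrial matrix (probe at chr5:137891504-137891563, hg19). Its signal was 12.25 and 12.32 on the ORI control arrays and 10.87 and 10.97 with pre-miR-375. The TT arrays stood at 11.72 and 11.66 for the control and 11.70 and 11.68 with antagomiR-375. The ORI groups did not overlap and the TT groups did. The log2 difference was -1.36 ± 0.08 in Nthy-ori 3-1 (SE, limma adjusted p = 0.318), with pairs of -1.38 and -1.35.

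HSPH1, the HSP110 that exchanges nucleotide on HSP70, was at 13.80 and 14.16 in ORI control and 12.61 and 12.95 with pre-miR-375. In TT cells the values were 14.13 and 14.21 without and 14.21 and 14.24 with antagomiR-375. The ORI groups did not overlap, with a log2 difference of -1.20 ± 0.08, and the difference in TT cells was 0.06 ± 0.08. Its second probe, which was dimmer, had a mean difference of -0.62 in Nthy-ori 3-1.

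The stress-inducible HSPA1A and HSPA1B are near-identical copies on chromosome 6, so that signal may be shared between their probes and the values are uncertain for each gene alone. HSPA1A read 12.89 and 12.48 in ORI control, 12.09 and 11.70 with pre-miR-375, 12.16 and 12.18 in TT control and 12.65 and 12.64 with antagomiR-375. HSPA1B read 12.91 and 12.75, 12.30 and 12.12, 10.59 and 10.71, and 11.09 and 10.99 in the same order. For both genes the treated arrays lay below the controls in Nthy-ori 3-1 and above them in TT cells, without overlap. The log2 differences were -0.79 ± 0.08 and 0.47 ± 0.08 for HSPA1A, and -0.62 ± 0.08 and 0.39 ± 0.11 for HSPA1B. With normexp correction, the median signal or the deposited values HSPA1B was no longer past 0.6 in both ORI pairs, with means of -0.56, -0.54 and -0.51. HSPA8 differed by -0.62 and -0.58 in the ORI pairs, but its ORI groups overlapped because the slides were further apart.

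HSPA13, a microsomal HSP70-like ATPase, was the 1 expressed member of the family above its control in both ORI pairs. It read 10.15 and 10.87 in ORI control, 10.68 and 11.26 with pre-miR-375, 10.80 and 10.66 in TT control, and 11.29 and 11.26 with antagomiR-375. It was higher in all 4 pairs, by 0.46 ± 0.09 in Nthy-ori 3-1 and 0.55 ± 0.09 in TT cells, although the ORI groups overlapped. HSPA6, the strictly stress-induced HSP70, had a mean of 5.91 over the ORI arrays and was not counted there. Its brightest probe differed by 0.04 in TT cells. Another probe of HSPA6, well above background on all arrays, differed by 0.80 and 0.67 in the TT pairs and by -0.51 and -0.86 in the ORI pairs, so no direction is given for the gene.

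**Figure D2:**
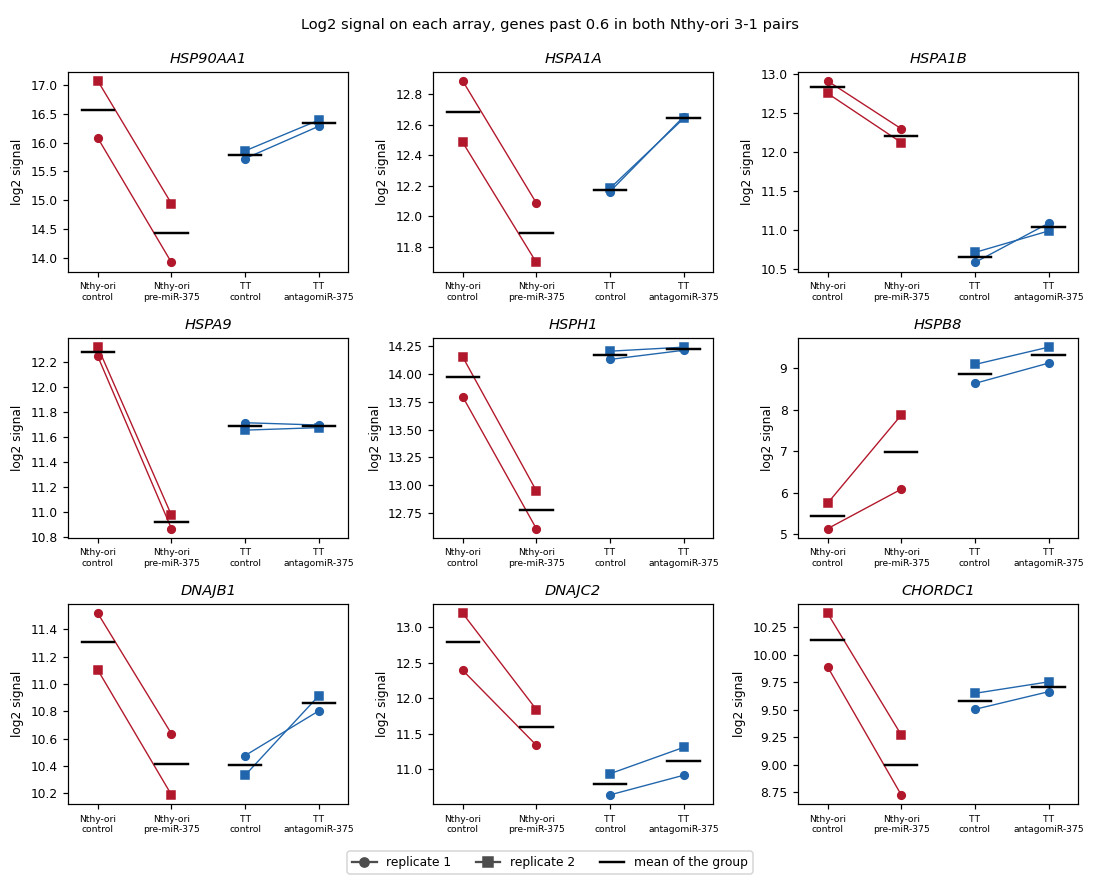
Log2 signal on each of the 8 arrays for the 9 genes past 0.6 in both Nthy-ori 3-1 pairs, with circles for replicate 1, squares for replicate 2, lines joining arrays of one slide and bars at group means. Each panel has its own axis, so levels of different genes cannot be compared. Both red lines go down in 8 panels and up in that of HSPB8, and HSPA9 is at 11.66 to 11.72 on all TT arrays.

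Small HSPs did not share a direction in Nthy-ori 3-1 cells. Their median difference was 0.01 over 4 expressed genes. In both pairs 2 were lower and 2 higher (against 33.4% and 41.2% of all genes). The median turned to -0.04 when arrays were scaled to their 75th percentile. HSPB8, a small HSP that acts with BAG3 in selective autophagy, was the only member higher by 0.6 in both pairs. It read 5.14 and 5.75 in ORI control, 6.09 and 7.87 with pre-miR-375, 8.63 and 9.09 in TT control, and 9.12 and 9.50 with antagomiR-375. The ORI groups did not overlap, but the pairs were unequal at 0.95 and 2.12. The log2 difference of 1.53 ± 0.42 (limma adjusted p = 0.378) shrank to 0.85 with normexp correction, 0.97 with the median signal and 1.01 in the deposited values. In these 3 settings and with the mean of all probes HSPB8 was not past 0.6 in both pairs. Its other probe was not well above background on any ORI array.

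Markers of C cells were also above their control level on the pre-miR-375 arrays. Of the 10 markers, 1 was well above background on both ORI control arrays and 6 were on both pre-miR-375 arrays, among them SYP and SCG2, while INSM1 and CEACAM5, for example, were not well above background on any ORI array. The summed log2 level of the list was 7.36 and 7.31 on the control arrays, 9.23 and 9.33 with pre-miR-375, and 18.93 to 19.09 on the TT arrays. CALCA was at 8.12 and 4.51 with pre-miR-375, whereas every TT array was at 18.49 or above. DNAJA4, the member with the largest excess in TT cells, was at 4.03 and 4.42 with pre-miR-375 and at 4.92 and 3.95 in the ORI control. The part of these markers in the HSPB8 result was not tested.

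CRYAB, the alpha-B crystallin, was the only member whose brightest probe was past 0.6 in both TT pairs. It read 7.02 and 7.01 in TT control, 7.74 and 7.71 with antagomiR-375, 8.69 and 7.71 in ORI control and 7.94 and 7.62 with pre-miR-375. The TT groups did not overlap and the ORI groups did. The log2 difference in TT cells was 0.71 ± 0.08 (limma adjusted p = 0.512), and was 0.50 with normexp, 0.46 with the median signal and 0.45 in the deposited values. HSPB1, the abundant HSP27, was higher by 0.39 and 0.44 in the TT pairs, with the same sign for its 3 probes. HSPB11, whose protein is a component of intraflagellar transport, had the opposite signs, at 0.17 and 0.19 in the ORI pairs and -0.17 and -0.12 in the TT pairs.

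Among the J-domain proteins, 7 of 10 expressed genes were lower in both ORI pairs (against 33.4% of all genes), with a median of -0.22. DNAJC2, the ribosome-associated J-protein zuotin, read 12.40 and 13.20 in ORI control and 11.34 and 11.84 with pre-miR-375. In TT cells it read 10.64 and 10.94 in control and 10.92 and 11.31 with antagomiR-375. The ORI groups did not overlap, whereas the TT groups did, with pairs of 0.28 and 0.37. The log2 difference in Nthy-ori 3-1 was -1.21 ± 0.13 (limma adjusted p = 0.318).

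DNAJB1, the HSP40 induced together with HSPA1A on heat shock, read 11.52 and 11.10 in ORI control, 10.64 and 10.19 with pre-miR-375, 10.48 and 10.33 in TT control and 10.80 and 10.92 with antagomiR-375. Neither line overlapped between treatments. The log2 differences were -0.90 ± 0.08 and 0.45 ± 0.12. DNAJA3, the mitochondrial partner of mortalin, read 11.95 and 12.49, 11.40 and 12.12, 10.88 and 11.12, and 11.52 and 11.62 in the same order of groups. It overlapped between the ORI groups and not between the TT groups, with differences of -0.46 ± 0.10 and 0.57 ± 0.10.

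DNAJB5, a J-protein of the DNAJB1 subfamily, had the opposite signs. It read 10.44 and 10.18 in ORI control, 10.82 and 10.83 with pre-miR-375, 11.42 and 11.54 in TT control, and 11.19 and 11.23 with antagomiR-375. Neither line overlapped, and the differences were 0.51 ± 0.12 and -0.28 ± 0.09, with equal signs for its second probe. For DNAJB6, a suppressor of polyglutamine aggregation, the brightest probe read 13.80 and 14.44, 13.91 and 14.50, 12.49 and 12.60, and 12.15 and 12.27 in that order. Its 3 probes disagreed in sign in both lines, with -0.43 to 0.08 in Nthy-ori 3-1 cells and -0.34 to 0.53 in the TT line, so no direction is given for the gene. DNAJA2, a constitutive HSP40, read 9.15 and 9.23, 9.03 and 8.87, 9.38 and 9.18, and 8.98 and 8.94. Its treated arrays lay below the controls in both lines.

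Chaperonins differed little, with a median of -0.10 in Nthy-ori 3-1 cells. Of 9 genes, 4 were lower and 2 higher in both ORI pairs (against 33.4% and 41.2% of all genes). The class ranged from -0.34 for CCT2 to 0.36 for CCT5. None was past 0.6 in both pairs of either line. CCT5, a subunit of the cytosolic TRiC ring, read 6.41 and 7.36 in ORI control, 6.92 and 7.58 with pre-miR-375, 8.74 and 8.61 in TT control and 8.43 and 8.55 with antagomiR-375. Its ORI groups overlapped, and its TT groups did not. CCT5 had only 1 probe, dimmer on every array than the brightest probe of each other chaperonin, so its values rest on that probe alone. HSPD1 and HSPE1, the mitochondrial HSP60 and HSP10 that share a promoter region, were lower in both ORI pairs, at -0.14 in each pair for HSPD1 and at -0.15 and -0.18 for HSPE1. The subunit TCP1 read 10.32 and 10.39, 10.49 and 10.60, 11.02 and 11.04, and 10.57 and 10.72, but its 3 probes differed in sign in every comparison, with -0.46, -0.19 and 0.19 in Nthy-ori 3-1 cells and -0.38 to 0.15 in the TT line, so no direction is given for the gene.

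Co-chaperones were lower in both ORI pairs for 9 of 11 genes (against 33.4% of all genes), with a median of -0.38. CHORDC1, an HSP90 co-chaperone that heat shock induces, read 9.89 and 10.38 in ORI control, 8.73 and 9.27 with pre-miR-375, 9.50 and 9.65 in TT control and 9.66 and 9.75 with antagomiR-375. The groups of neither line overlapped, although those of TT cells were nearly in contact. The log2 differences were -1.13 ± 0.08 (limma adjusted p = 0.318) and 0.13 ± 0.08, and its other probes had the same signs. The immunophilin FKBP4 differed by -0.58 and -0.59 in the ORI pairs. FKBP5, which binds HSP90 in steroid receptor complexes, differed by -0.58 and -0.47. In TT cells FKBP5 was the co-chaperone with the largest difference, at 6.04 and 6.19 in control and 6.48 and 6.41 with antagomiR-375. In Nthy-ori 3-1 it read 7.69 and 8.04 in control and 7.11 and 7.57 with pre-miR-375, and the groups of neither line overlapped. BAG1 and AHSA1 were the co-chaperones without a common sign in the ORI pairs.

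The heat shock factors differed little. HSF1, the factor that drives heat shock genes, read 14.55 and 14.11 in ORI control, 14.25 and 13.95 with pre-miR-375, 14.27 and 14.16 in TT control, and 14.61 and 14.39 with antagomiR-375. The ORI groups overlapped and the TT groups did not, with differences of -0.23 ± 0.10 and 0.29 ± 0.09. Another, dim probe of HSF1 had the opposite sign in Nthy-ori 3-1 (0.70). HSF2 differed by 0.08 in Nthy-ori 3-1 and by 0.09 in TT cells.

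In TT cells more members were above than below their controls with antagomiR-375. Of 51 expressed members, 31 were higher in both pairs (60.8%, against 31.9% of 16260 genes) and 7 were lower in both (13.7%, against 36.2%). The median was 0.10 for the members and -0.01 for all genes, and by class it was highest for small HSPs (0.42) and lowest for the HSP70 family (0.04). The chaperonin median of 0.08 turned to -0.04 with scaling to the 75th percentile. CRYAB was the 1 member past 0.6 (2.53% of all genes were). No member or gene passed the adjusted p with limma (0%), and no member did under any alternative, whereas 0.0248% of all genes passed with the median signal. At an unadjusted p under 0.05, 8 members were higher (15.7%, against 5.41% of all genes) and the brightest probe of 1, DNAJB6, was lower (against 4.78%), while another probe of that gene differed by 0.53.

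The treatments of the 2 lines share no arrays, so their signs may be set side by side. A member lower with pre-miR-375 and higher with antagomiR-375 in all 4 pairs was seen 22 times among the 48 members expressed in both lines (45.8%), while 13.4% of 14016 genes had this pattern. Among their other probes with a mean of at least 6, one of CCT4, one of DNAJB2 and one of HSPA4 had the opposite sign in TT cells and one of HSF1 had it in Nthy-ori 3-1. The reverse pattern was held by CCT5, DNAJB5, HSPB11 and the brightest probes of DNAJB6 and TCP1, whose other probes differ in sign (10.4%, against 17.2%). By class the first pattern was found for 2 of 3 HSP90, 4 of 10 HSP70, 2 of 4 small HSP, 5 of 9 HSP40, 3 of 9 chaperonin, 5 of 11 co-chaperone and 1 of 2 heat shock factor genes. HSP90AA1, one of these 22 members, was selected by the study for this pattern. The study's selection also used target prediction and fold cutoffs, so its own set of genes is not these 22 members. HSPA9, HSPH1 and CHORDC1, each past -1 in both ORI pairs, had TT differences of at most 0.13.

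**Figure D3:**
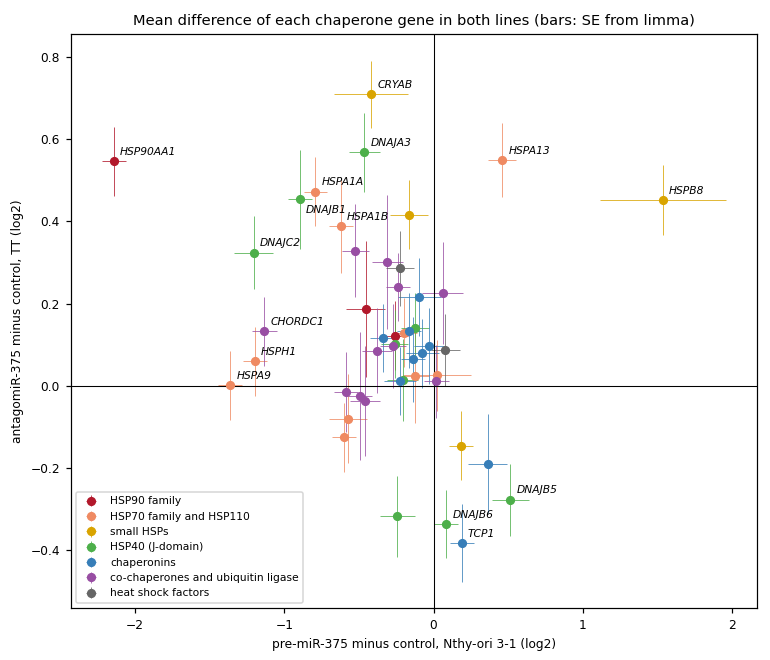
Mean log2 difference of Nthy-ori 3-1 cells given pre-miR-375 (horizontal axis) against that of TT cells given antagomiR-375 (vertical axis) for the 48 chaperone genes with a mean of at least 6 in both lines, with SE bars from limma and colors for classes. The upper left quadrant is the most filled, with HSP90AA1 at -2.14 and 0.55, and HSPA9 lies at -1.36 on the horizontal axis and near 0 on the vertical one. The axes have different ranges.

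Members known to be induced by heat were listed apart, with earlier results of these data known. Of the 19 that were expressed, 17 were lower in both ORI pairs (against 33.4% of all genes). In both pairs 0 were higher (against 41.2%), and the median was -0.46. The members that were higher in both, such as HSPB8 (1.53) and DNAJB4 (0.16), were not on this list. All counts for the list therefore depend on which members were put on it. In TT cells 13 of 19 were higher in both pairs (against 31.9% of all genes), with a median of 0.19. The reciprocal pattern was held by 12 of 18 (against 13.4%). Chaperones of the endoplasmic reticulum were listed for contrast. In Nthy-ori 3-1, 0 of 8 were lower in both pairs, 5 were higher in both, and the median was 0.10. In TT cells 6 of these 8 were higher in both pairs. Of 8 other genes known to be induced by HSF1, 4 were lower and 1 was higher in both ORI pairs. No test was made between these lists.

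Further partners of the members were read from fixed lists. Of 15 other HSP90 and HSP70 co-chaperones 8 were lower and 6 higher in both ORI pairs. Of 11 other J-domain proteins 3 were lower and 7 higher, and of 11 other chaperonin, prefoldin and mitochondrial genes 8 were lower and 2 higher. Among all genes with a mean of at least 6, 33.4% were lower and 41.2% higher in both ORI pairs. Past 0.6 in both pairs were BAG4, a nucleotide exchange factor (-1.24), GRPEL2, the exchange factor of mortalin (-1.07), DNAJC8 (-1.04) and DNAJB9, a J-protein of the endoplasmic reticulum (1.45), each with a limma adjusted p of 0.318. All 4 passed it with normexp correction and when dim probes were left out.

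With the promoter runs described above, the members that held a 3-unit run had a median of -0.46 in Nthy-ori 3-1 (7 expressed genes, 6 of them lower) and those without one had -0.23 (38 genes, 27 lower). In TT cells the medians were 0.10 (8 genes) and 0.12 (37 genes). HSPA9 and DNAJB1 held a 2-unit run, and HSPH1 and DNAJC2 held neither in this window. These medians are a description and were not tested.

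The control groups of the 2 lines differed for most members, in a comparison that shares its arrays with both treatment comparisons. Line, slide and RNA integrity number (9 in ORI control and 8 in TT control) cannot be told apart in it. With limma on 4 groups and slide as a random block, 34 of 54 members passed the adjusted p of 0.05 (63%, against 30.8% of 36337 genes). Of these, 25 were lower in TT cells (46.3%, against 15.1%) and 9 were higher (16.7%, against 15.7%). Among genes with a mean of at least 6 in the controls, 24 of 51 members were lower (47.1%, against 24.4%) and 8 were higher (15.7%, against 23.5%). The median of the members was -0.78, and that of all genes was -0.05.

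Small HSPs showed both signs. HSPB1 was at 16.83 and 16.46 in ORI control and 14.06 and 14.07 in TT control, a log2 difference of -2.57 ± 0.16 with no overlap. HSPB8 was higher in TT cells by 3.41 ± 0.59. DNAJA4, a type I HSP40, was the member with the largest excess in TT cells, with 11.12 and 11.16 against 4.92 and 3.95 in ORI control, where it was well above background on 1 of 2 arrays. The other J-domain proteins were mostly lower in TT cells, 7 of 10 of them past the threshold (against 15.1% of all genes). HSPA12A, an atypical HSP70, was at 6.72 and 6.97 in ORI control and not well above background on any TT array, and was at least 10.9-fold lower there.

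BAG2, which inhibits STUB1, was at 11.11 and 11.03 in ORI control and 8.95 and 8.87 in TT control, a log2 difference of -2.16 ± 0.17. HSPA1B differed by -2.18 ± 0.14, while HSPA1A, its near-identical copy, differed by -0.51 ± 0.18 and did not pass (limma adjusted p = 0.0899). CCT5 (1.79 ± 0.33), DNAJB5 (1.17 ± 0.15) and HSF2 (1.29 ± 0.15) were higher in TT cells. For TCP1 the brightest probe was higher (0.67) and another lower (-1.13). The 3 HSP90 genes did not pass, with TRAP1 the furthest at -1.14 ± 0.41 from 11.08 and 12.20 in ORI control to 10.35 and 10.65 in TT control (limma adjusted p = 0.103), and HSP90AA1 at -0.78 ± 0.37 (limma adjusted p = 0.202). Without 1 control array, between 26 and 29 members passed.

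**Figure D4:**
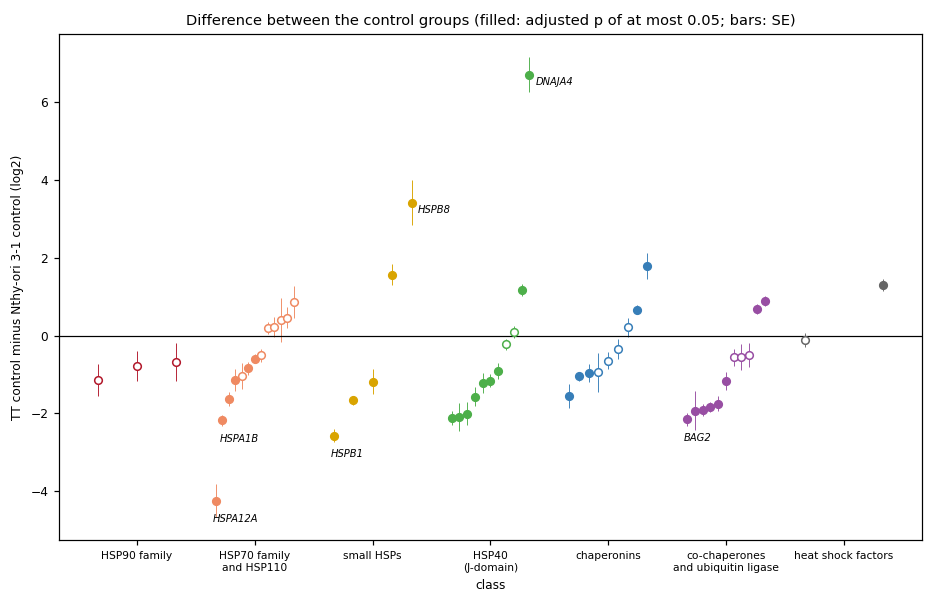
Log2 difference between TT control and Nthy-ori 3-1 control for each of the 54 chaperone genes, by class, with SE bars from limma and filled points for an adjusted p of at most 0.05. Most filled points lie under 0, and DNAJA4 (6.70, with 1 of 2 ORI control arrays well above background) and HSPB8 (3.41) stand furthest above it.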

How the data were processed

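For each array the authors deposited the Feature Extraction 10.10.1.1 output, with a processed intensity per spot that was background subtracted and not normalized between arrays, and 1 table of log2 values, quantile normalized per the methods. Labels and methods differ on the RNA fraction and the transfection concentrations, which are not given. The methods call the replicates biological.

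The processed intensity was converted to log2, outlier spots (341 to 428 per array) and control spots were left out, replicate spots were merged into a mean per probe, and quantile normalization of the 8 arrays followed (limma 3.58.1, R 4.3.3). A limma model (lmFit, eBayes) was fitted per line with treatment and replicate number as terms, the latter as the block, and Benjamini-Hochberg adjustment covered all probes. Replicate differences of treated and control arrays correlated within each line (r = 0.785 over 24192 probes in Nthy-ori 3-1, 0.330 over 27241 probes in TT), and the numbers mark a shared slide in the file headers. The control groups were compared in a 4-group fit with slide as a random block (correlation 0.501). With 1 residual degree of freedom per line the prior degrees of freedom (0.994 and 1.13) bound the adjusted p. The fits were tested on simulated data. The number of arrays limits the precision.

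Members and lists were chosen with earlier results of these data known. Values on every array were given for HSP90AA1, for the 3 largest differences of each sign per comparison and for the largest per class. BAG4, GRPEL2, DNAJC8, DNAJB9 and further genes were named after their values were seen. The level of a further C cell marker is not reported here. Gene names are those of the array design, and 53 of 54 are current RefSeq symbols. Coordinates of probes are hg19 and those of promoters GRCh38.p14. Alternatives were other scaling, background, filter, probe, block, variance and threshold settings and each replicate left out.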

Additional observations from a re-analysis of the deposited data

How the results depend on the processing

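With 0 members past the adjusted p in Nthy-ori 3-1 cells, 7 passed with normexp background correction, 5 with the median spot signal, 5 with the deposited log2 values and 5 with dim probes left out, and 0 in the other alternatives. The cause was not tested, apart from the larger prior degrees of freedom (2.58 to 3.04) that these settings gave. In TT cells 0 passed under every alternative. Without the replicate block 0 members passed in either line, as with it, so that no call could be lost, and the settings that called members were not fitted without the block. Members past 0.6 in both Nthy-ori 3-1 pairs were 9, and 5 at a log2 difference of 1, and were 10 to 13 with 1 replicate left out. They were 7 with normexp, with the median signal and with the deposited values, all lower, where HSPB8 and HSPA1B were not among them. In TT cells 1 member was past 0.6, CRYAB, and 0 with normexp, with the median signal, with the deposited values and at a difference of 1, while 2 were with either replicate left out. The reciprocal pattern was seen for 17 to 22 members under other processing and for 29 to 30 with 1 replicate left out. Leaving out 1 replicate loosens each rule on pairs, since fewer pairs have to agree. The larger counts found that way are therefore no measure of stability. Between the control groups 25 to 36 members passed, and 26 to 29 with 1 array left out. CCT5 no longer passed there with 4 control arrays alone (adjusted p = 0.0598). None of the differences chosen by the naming rule reversed its sign while the brightest probe was kept. Another probe of HSF1 had the opposite sign in Nthy-ori 3-1 cells (0.70). In TT cells another probe of DNAJB6 (0.53) and another of TCP1 (0.15) did. The small TT difference of HSPA9 (0.00070) was -0.03 with normexp, -0.05 with the median signal and -0.04 in the deposited values, and that of HSPH1 (0.06) was -0.01 in the deposited values. DNAJA4 was well above background on 1 of 2 arrays in each ORI group, which limits its values there.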
